A study of Mus musculus with 6 samples.

Results

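The genes described here are 10 members of a run of F-box genes on mouse chromosome 9, Fbxw15, Fbxw16, Fbxw18, Fbxw19, Fbxw20, Fbxw21, Fbxw22, Fbxw24, Fbxw26 and Fbxw28, of 55487 genes in the deposited table. They were chosen by symbol and place on the chromosome, with their read counts in these libraries already known, so their levels are given as a description and are not tested. The 6 libraries are of mouse oocytes, 3 labelled control and 3 labelled metformin, an antidiabetic biguanide. The title of the series names aged mice, while the labels of the samples give no strain or age. All females had been primed with 10 IU of gonadotropin from pregnant mares, oocytes were taken at the germinal-vesicle stage 46 to 48 h later and freed of cumulus cells, and all were matured in M16 medium for 16 h to metaphase II. Metformin is listed at 10, 20 and 50 μM, and the labels state neither which of these was sequenced nor how many oocytes made up a library.

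F-box proteins are the substrate receptors of SCF ubiquitin ligases, which consist of SKP1, the cullin CUL1, a RING protein and an exchangeable F-box protein. The F-box binds SKP1, and in the FBXW class WD40 repeats bind the substrate, which is then marked with ubiquitin. The chromosome 9 genes are a group expanded in rodents and known from oocytes. Fbxw15 was described as a gene transcribed selectively in the oocytes of the ovary, and Fbxw24 has been linked to meiotic prophase in females. All libraries here are of oocytes, so whether the genes are silent in other cells was not examined.

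On the GRCm38 assembly (mm10) and in the GENCODE M21 annotation, the cluster runs from 109139447 to 109790670 on chromosome 9, a span of 651 kb. It holds 15 Fbxw genes, all on the minus strand, of which 14 are annotated as protein-coding and Fbxw23 as a transcribed pseudogene. The members lie in the order Fbxw21, Fbxw20, Fbxw28, Fbxw22, Fbxw16, Fbxw19, Fbxw15, Fbxw24, Fbxw18 and Fbxw26 by rising coordinate. Gaps between neighbouring Fbxw genes were 12.1 to 38.7 kb (median 21.0 kb). The coding model of each member has 10 exons and between 464 and 469 codons, and each coding sequence is 79.0% to 91.9% identical to that of any other member (median 83.8% over 45 pairs).

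The promoters of the members are alike too. RefSeq windows of 250 bases before to 50 bases after the start were found for 9 of the 10 members, and not for Fbxw22. They were 83.4% to 96.3% identical in pairs (median 90.6% over 36 pairs). The 150 bases before the RefSeq start are printed 5′ to 3′ on the minus strand of GRCm38.p6 for the members with the highest levels that have a window and for those with the lowest, to show how alike promoters of genes at very different levels are. Capitals mark CAGCTG, a version of the E-box. The coordinates are chr9:109339660-109339809 for Fbxw28, chr9:109626060-109626209 for Fbxw24, chr9:109702701-109702850 for Fbxw18, chr9:109746090-109746239 for Fbxw26 and chr9:109162023-109162172 for Fbxw21.
Fbxw28: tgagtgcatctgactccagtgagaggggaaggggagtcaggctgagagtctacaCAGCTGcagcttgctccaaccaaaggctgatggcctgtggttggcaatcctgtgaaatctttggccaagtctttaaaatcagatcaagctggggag
Fbxw24: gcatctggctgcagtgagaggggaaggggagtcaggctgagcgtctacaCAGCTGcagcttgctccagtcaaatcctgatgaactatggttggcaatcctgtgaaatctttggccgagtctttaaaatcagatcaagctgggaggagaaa
Fbxw18: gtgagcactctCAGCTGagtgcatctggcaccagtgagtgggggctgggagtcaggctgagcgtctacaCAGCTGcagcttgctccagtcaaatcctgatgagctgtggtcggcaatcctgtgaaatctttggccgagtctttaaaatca
Fbxw26: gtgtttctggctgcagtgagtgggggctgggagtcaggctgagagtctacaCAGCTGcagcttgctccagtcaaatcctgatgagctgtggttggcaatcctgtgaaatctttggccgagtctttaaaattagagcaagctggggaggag
Fbxw21: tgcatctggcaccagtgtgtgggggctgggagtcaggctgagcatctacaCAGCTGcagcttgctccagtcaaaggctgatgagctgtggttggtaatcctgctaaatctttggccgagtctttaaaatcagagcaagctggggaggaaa

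The general E-box CANNTG, the kind of site bound by basic helix-loop-helix factors such as the oocyte factor FIGLA, was present in 9 of 9 member windows and in 72.1% of the RefSeq promoter windows of 26742 genes, searched on both strands. The CAGCTG version, looked for after the promoters had been read, was in 9 of 9 member windows and in 16.2% of all. Every member window had a copy beginning between 80 and 125 bases before the start, and all but that of Fbxw20 had another further upstream. The homeobox cores TAATTG and TAATTA and the TATA sequence TATAAA were in 0 of 9 member windows, against 8.2%, 5.3% and 14.1% of all. These 9 promoters are copies of each other, so the counts are not of independent sequences.

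The coding sequences differ enough for most reads to be placed, with an exception in Fbxw28. The first 90 coding bases from the start codon (GENCODE M21, GRCm38) are printed for Fbxw28, its closest copy Fbxw14, the neighbouring Fbxw gene, which is not a member, and for Fbxw24 and Fbxw21, the second highest and the lowest member. Capitals mark bases that differ from Fbxw28.
Fbxw28: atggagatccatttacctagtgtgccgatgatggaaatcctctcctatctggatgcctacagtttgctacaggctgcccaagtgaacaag
Fbxw14: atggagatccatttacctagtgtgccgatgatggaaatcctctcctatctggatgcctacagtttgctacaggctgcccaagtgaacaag
Fbxw24: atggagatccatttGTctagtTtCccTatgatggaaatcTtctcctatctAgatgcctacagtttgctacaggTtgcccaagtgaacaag
Fbxw21: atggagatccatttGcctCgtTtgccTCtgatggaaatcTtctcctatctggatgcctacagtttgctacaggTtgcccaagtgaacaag

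Over this stretch Fbxw14 differed from Fbxw28 at 0 bases, Fbxw24 at 8 and Fbxw21 at 7. Over the whole coding sequence Fbxw28 and Fbxw14 were 99.1% identical, and their longest identical coding stretch was 345 bases. Of the 100-base windows in the annotated transcripts of Fbxw28, 42.3% also occur in Fbxw14, and 30.6% of its 150-base windows do. A read lying wholly within such a window cannot be assigned to either gene by its own sequence. The sources used here state neither the read length nor how the authors' counting treated such reads. The values of Fbxw28 are therefore uncertain as a division between the copies. The sum of the pair is given with its level and with its comparison between groups. Any such reads left uncounted would be missing from both genes and from their sum. Any counted for both genes would raise both values and their sum, so these levels may be too low or too high.

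The other 9 members shared far less. At 100 bases, windows identical in any other annotated gene on either strand made up 0% of Fbxw22 and Fbxw24, between 0.62% and 1.84% of Fbxw18, Fbxw19, Fbxw20, Fbxw21 and Fbxw26, and 6.45% and 6.42% of Fbxw16 and Fbxw15. For Fbxw16 that share lay within Gm42494, and for Fbxw15 mainly within Gm42756, genes annotated on the opposite strand. Gm42494 held 1 to 8 counts per library and Gm42756 held 0 to 3, while Fbxw16 had at least 3334 and Fbxw15 at least 2820. The library kit does not mark the strand, so these counts cannot show whether reads in the overlaps were left uncounted.

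**Figure D1:**
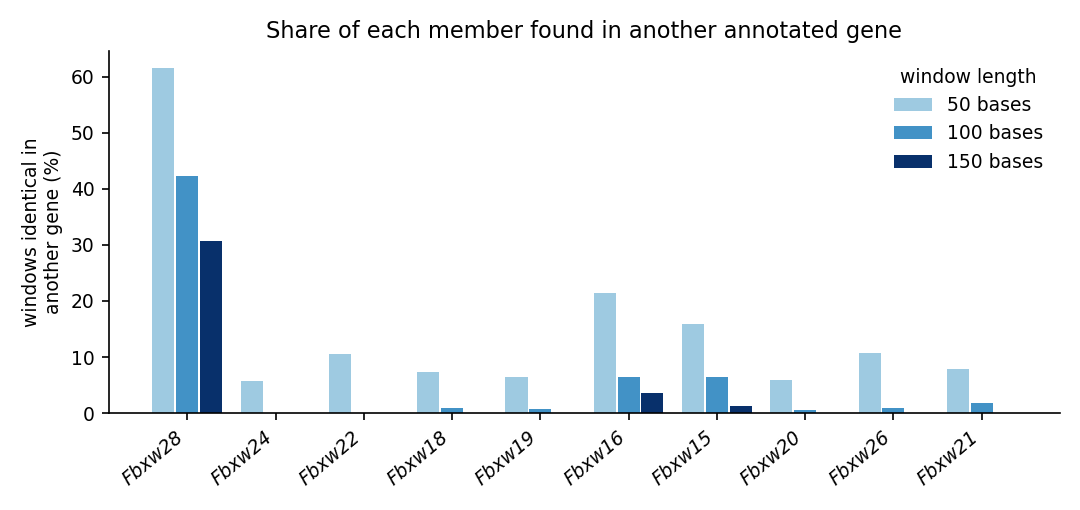
Percentage of the distinct windows of 50, 100 or 150 bases in the annotated transcripts of each member (x axis) that also occur in another annotated gene (y axis). Fbxw28 stands alone at 61.5%, 42.3% and 30.6%, and no other member exceeds 21.5% at 50 bases or 6.45% at 100.

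The libraries held 8622281 to 10588292 counted reads and 19662 to 20212 genes with a read. All 8 oocyte markers of a fixed list (Gdf9, Bmp15, Zp1, Zp2, Zp3, Mos, Ddx4 and Dazl) were detected, and their summed level was 15400 to 16500 CPM (read counts relative to scaled library sizes) in control and 14800 to 16600 CPM in metformin libraries. The 8 cumulus and granulosa markers summed to 37.0 to 42.8 and 38.2 to 49.5 CPM, with Cyp19a1 the highest and Amh, Foxl2 and Ptx3 at 0 in every library. The 2 endothelial markers, Pecam1 and Cdh5, summed to 23.5 to 34.7 CPM over all libraries, with Pecam1 the higher. The 5 blood markers summed to 29.9 CPM in control replicate 1 and to at most 0.295 CPM elsewhere, and the 4 stroma markers to 5.15 CPM there and at most 0.761 CPM elsewhere. Whether these reads came from such cells, and what part they had in the results, was not tested.

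The members were among the abundant transcripts of these oocytes. Their reads made up 1.70%, 1.62% and 1.70% of all counts in control replicates 1 to 3 and 1.54%, 1.76% and 1.96% in metformin replicates 1 to 3. Metformin libraries thus held both the lowest and the highest share, and the control values lay between them. Such shares of counts measure neither the number of oocytes nor the amount of RNA per oocyte. The share of all 15 Fbxw genes of the cluster together was 2.34% ± 0.0754 in control libraries and 2.42% ± 0.297 in metformin libraries (SD, n = 3 each).

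Fbxw28 was the highest member. It stood at 2958, 2838 and 2997 FPKM (reads per length and library size, as deposited) in control replicates 1 to 3 and at 2725, 2989 and 3526 FPKM in metformin replicates 1 to 3. By mean FPKM it ranked 16 among all genes, above the oocyte growth factor gene Gdf9 at rank 22, whose mean over all libraries was 2766 FPKM. Summed with Fbxw14, the values were 5119, 4918 and 5278 FPKM in control and 4607, 5130 and 6020 FPKM in metformin libraries. For Fbxw28 and for the pair, metformin replicate 3 was highest and metformin replicate 1 lowest, so the metformin libraries enclosed the controls.

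Fbxw24 followed at rank 29. Its values were 2160, 2136 and 2204 FPKM in control libraries and 1995, 2328 and 2434 FPKM in metformin libraries. Fbxw28 was above it in 6 of 6 libraries, by a mean ratio of 1.36. No 100-base window of Fbxw24 occurs in another annotated gene, so its level does not rest on a division between copies in the way that of Fbxw28 does.

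Fbxw22, Fbxw18 and Fbxw19 formed the next tier. Fbxw22 stood at 773, 758 and 781 FPKM in control libraries and 676, 875 and 954 FPKM in metformin libraries. For Fbxw18 the values were 694, 653 and 687 FPKM against 613, 720 and 789 FPKM. Fbxw19 had 538, 458 and 505 FPKM against 454, 567 and 579 FPKM. In all 3 genes metformin replicate 1 was the lowest library and metformin replicate 3 the highest, and the groups overlapped. Mos, the kinase gene of metaphase II arrest, had a mean of 1007 FPKM and the zona gene Zp3 one of 456 FPKM, so this tier lay around the level of well-known oocyte genes.

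The 5 remaining members were lower. Fbxw16 stood at 175, 162 and 186 FPKM in control libraries and 178, 162 and 194 FPKM in metformin libraries, and Fbxw15 at 179, 154 and 160 FPKM against 156, 159 and 180 FPKM. Fbxw20 had 138, 143 and 144 FPKM against 124, 143 and 156 FPKM. The lowest were Fbxw26, at 104, 89.0 and 78.7 FPKM against 94.5, 98.2 and 67.2 FPKM, and Fbxw21, at 64.0, 56.7 and 52.0 FPKM against 59.2, 62.1 and 56.2 FPKM. Fbxw28 exceeded Fbxw21 by between 46.0 and 62.8 times in the 6 libraries, and even Fbxw21 ranked 724 of 55487 genes. In Fbxw26 metformin replicate 3 was the lowest library, the reverse of the abundant members.

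**Figure D2:**
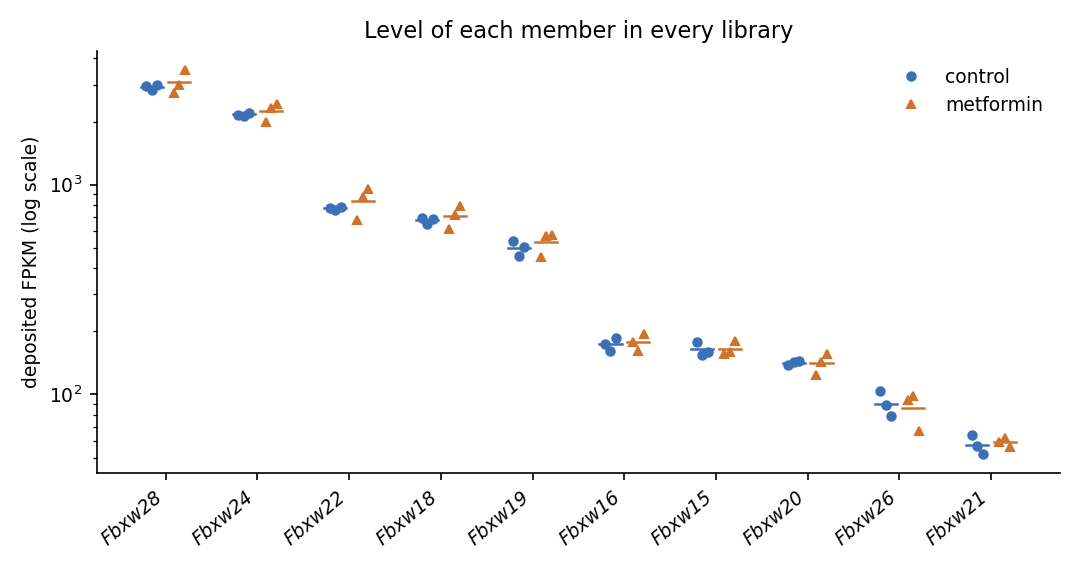
Deposited FPKM (y axis, log scale) of each member (x axis) in the 3 control libraries (circles) and the 3 metformin libraries (triangles), with group means as bars. The members span from 52.0 to 3526 FPKM, and within each the groups overlap.

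Neighbours in this order did not all separate. Fbxw28 over Fbxw24, Fbxw24 over Fbxw22, Fbxw18 over Fbxw19, Fbxw19 over Fbxw16, Fbxw20 over Fbxw26 and Fbxw26 over Fbxw21 had ranges over the 6 libraries that lay apart. The ranges of Fbxw22 and Fbxw18 overlapped, as did those of Fbxw16, Fbxw15 and Fbxw20 in turn, although Fbxw22 was above Fbxw18, and Fbxw15 above Fbxw20, in 6 of 6 libraries. Fbxw16 was above Fbxw15 in 5 of 6.

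Part of the order depends on the gene length behind the FPKM values. The lengths that the deposited FPKM and counts imply matched, within 1%, the summed length of all distinct annotated exons for 97.8% of 11232 genes with at least 100 counts over the 6 libraries, so that bases in overlapping exons of several isoforms were counted more than once. The length used for Fbxw28 was 2588 bases where its merged exons cover 1951, and for Fbxw15 2129 where they cover 1495, while Fbxw18, Fbxw24 and Fbxw26, with a single annotated isoform each, were unaffected. Per kilobase of merged exons, Fbxw28 stood at 3987 ± 366 and Fbxw24 at 2209 ± 154 FPKM recomputed on that length (SD over 6 libraries), a mean ratio of 1.803. On that scale Fbxw15 at 234 ± 16.7 and Fbxw16 at 234 ± 16.96 were level, and Fbxw21 at 74.7 ± 5.56 came close to Fbxw26 at 88.5 ± 13.5. Per kilobase of the coding transcript with the longest coding sequence, a scale chosen after the data were seen, Fbxw28 stood at 5196 ± 477 against 2209 ± 154 for Fbxw24. There Fbxw19 moved above Fbxw22, at 1271 ± 131 against 874 ± 106.3, and Fbxw21 at 121 ± 8.996 moved above Fbxw26. Among the members, Fbxw28 and Fbxw24 were first and second on all 3 scales.

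The make-up of the cluster varied little between libraries. Of the summed FPKM of the members, Fbxw28 contributed 36.9% to 39.5%, Fbxw24 27.2% to 28.7% and Fbxw22 9.55% to 10.8%, and these 3 genes together made up 75.7% to 77.4% in every library. Fbxw18 contributed 8.67% to 8.92%. The widest relative range was that of Fbxw26, from 0.752% in metformin replicate 3 to 1.34% in metformin replicate 1. Fbxw20 contributed 1.775%, 1.917% and 1.844% in control and 1.757%, 1.769% and 1.741% in metformin libraries. The groups thus did not overlap in its share, while they overlapped in that of each other member. This difference was not tested. Counted by reads rather than per length, Fbxw28 had 43.9% to 46.7% of the members' reads.

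Genes of the cluster outside the list were read as well. Fbxw14, the near-identical copy of Fbxw28, stood at 2161, 2080 and 2281 FPKM in control and 1882, 2141 and 2494 FPKM in metformin libraries. That was close to Fbxw24 in FPKM. Per kilobase of merged exons, however, Fbxw14 averaged 2925 over all libraries against 2209 for Fbxw24. Fbxw28 had between 1.195 and 1.317 times the counts of Fbxw14 in each library. The pseudogene Fbxw23 had a mean of 102 FPKM over all libraries, Fbxw25 one of 61.8, Fbxw27 one of 53.6 and Fbxw13 one of 33.7 FPKM. Per kilobase of merged exons their means were 108.5, 61.8, 102.9 and 40.3, so the place of Fbxw27 depends on the length used. In contrast, the 9 other genes annotated within the span never exceeded 11 counts in a library. The highest of them, the antisense gene Gm42493, held 8 to 11 counts.

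**Figure D3:**
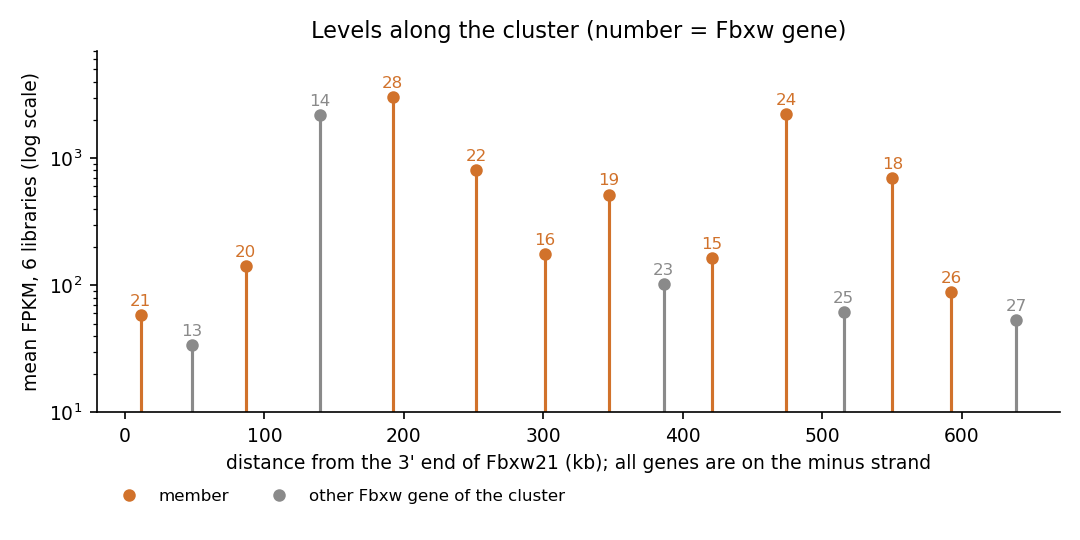
Mean FPKM over 6 libraries (y axis, log scale) of the 15 Fbxw genes of the cluster against the distance of their midpoints from the 3′ end of Fbxw21 (x axis, kb), with members in orange and other cluster genes in grey. Fbxw28 (3006 FPKM) stands between Fbxw14 (2173 FPKM) and Fbxw22 (803 FPKM), also among the higher genes. Fbxw24 (2209 FPKM) stands between the lower Fbxw15 (165 FPKM) and Fbxw25 (61.8 FPKM).

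Across libraries most members moved together. In 7 of 10 members metformin replicate 1 was the lowest library and metformin replicate 3 the highest of the 6, while 18.5% of the 1764 genes averaging at least 100 CPM, and 7.75% of all 12793 genes tested, had this order. The summed members stood 0.24 below their 6-library mean (log2) in metformin replicate 1 and 0.31 above it in metformin replicate 3. Fbxw22 was 0.33 below and 0.37 above its own mean in these libraries. Fbxw16 was again highest in metformin replicate 3, by 0.25, but lowest in control replicate 2.

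Fbxw26 and Fbxw21 did not share this pattern. Fbxw26 stood 0.02 above its mean in metformin replicate 1 and 0.27 below it in metformin replicate 3. Fbxw21 differed from its mean by at most 0.10 in any library and had the smallest spread of the members, with a coefficient of variation of 6.35% over the 6 libraries against 16.8% for Fbxw22. Fbxw13, outside the list, was also lowest in metformin replicate 3, by 0.44. The median coefficient of variation of the members was 11.9%, next to 11.6% for all genes averaging at least 100 CPM.

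**Figure D4:**
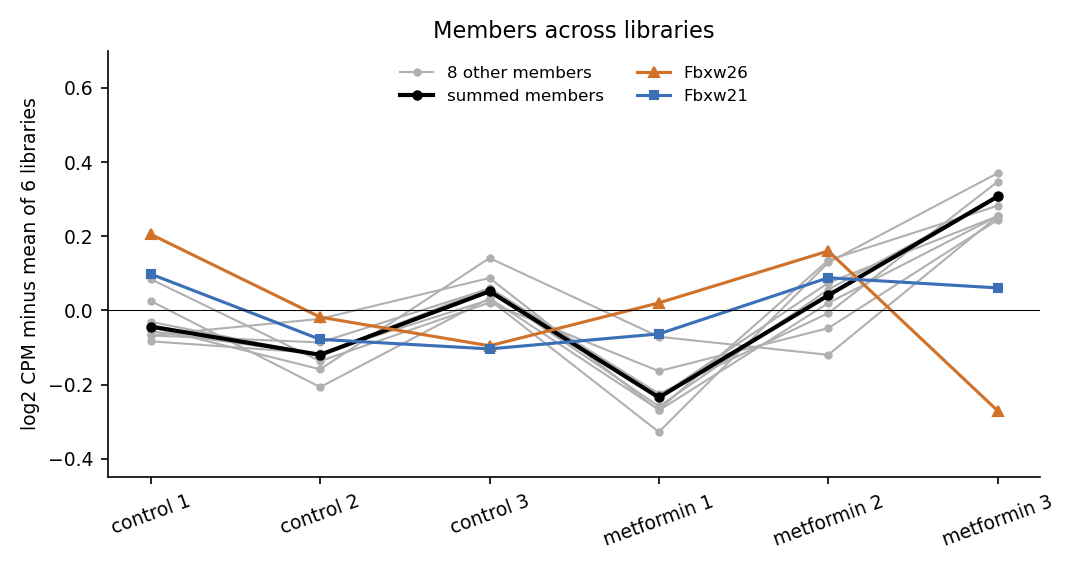
Log2 CPM of each member minus its mean over the 6 libraries (y axis) by library (x axis, in no order within a group), with lines joining the values of a gene. The summed members (black) run from -0.24 in metformin replicate 1 to 0.31 in metformin replicate 3, while Fbxw26 (triangles) is at -0.27 in metformin replicate 3.

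Profiles were compared with that of the summed members by the root mean square difference in centred log2 CPM over 6 libraries. The 5937 genes compared averaged at least 10 CPM, and left out the members and genes with only a placeholder symbol. The most similar were Med30, Nudt7, Gins4, Iglc3 and Erg28. Their differences were 0.030 to 0.037. All of these values come from the same 6 libraries and share their depth.

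The comparison of metformin with control asked whether oocytes matured with the drug hold other amounts of these transcripts. No difference was called in any member. By edgeR's quasi-likelihood test, 0 of 10 members passed an adjusted p of 0.05, where 0.0391% of the 12793 genes tested did, and 0 of 10 had an unadjusted p under 0.05, against 1.50% of genes (0.883% with a higher value in metformin libraries). DESeq2, which called 0.0704% of genes, and limma-voom also called 0 members. The groups overlapped in all 10 members, and in 5.63% of genes tested they did not. All 10 members passed the filter on low counts.

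Fbxw22 had the largest fitted difference, from 1538 ± 81.5 CPM in control to 1696 ± 399 CPM in metformin libraries (SD, n = 3 each). On the log2 scale edgeR put this at 0.14 (SE 0.173), with an adjusted p of 1.00. The 95% interval built from that SE was -0.34 to 0.62. Fbxw28 went from 7580 ± 481 to 8091 ± 1648 CPM, or 0.09 on the log2 scale (SE 0.169; edgeR's adjusted p was 1.00). The pair of Fbxw28 and Fbxw14, which does not depend on the division of their reads, had 13770 ± 1008 and 14370 ± 2976 CPM and differed by 0.06 on the log2 scale (SE 0.175). Fbxw24 stood at 3221 ± 179 and 3396 ± 565 CPM, a log2 difference of 0.08 (SE 0.154; edgeR's adjusted p was 1.00).

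Fbxw26 had the only negative value, a log2 difference of -0.06 with SE 0.152 and an edgeR adjusted p of 1.00. The fitted values of the 6 other members lay between 0.02 for Fbxw20 and 0.11 for Fbxw19. Thus 9 of 10 were fitted higher, where 52.5% of all genes were, with a median of 0.07 against 0.01 for all genes tested. Most of these genes, though not Fbxw21 and Fbxw26, had similar profiles over the libraries, so their signs are not 10 separate observations. For the 10 members summed, the log2 difference was 0.09 (SE 0.170).

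That sign rested on metformin replicate 3. Without it the log2 difference of the sum was -0.055 (SE 0.146), and 9 of 10 members changed sign. Without metformin replicate 1 it was 0.22 (SE 0.142). The 95% intervals of the members reached from -0.48, for Fbxw26, to 0.62, for Fbxw22, and differences within a member's interval cannot be told from its estimate with 3 libraries per group. The labels do not say whether libraries came from separate animals or pools, so p-values reflect only how these samples vary, and that variation may be technical.

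**Figure D5:**
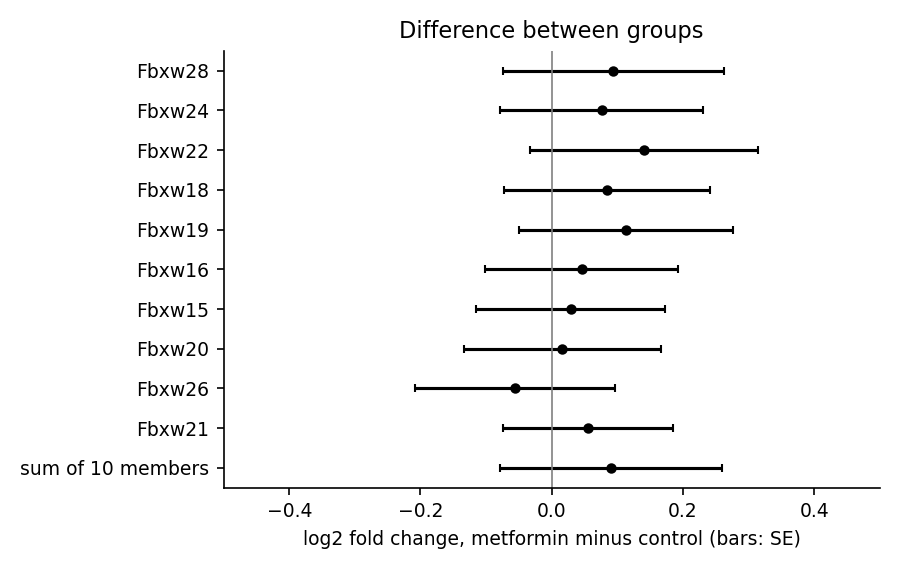
Log2 fold change, metformin minus control, from edgeR (x axis) for each member and for the sum of the 10 (y axis), with SE as bars. Values run from -0.06 for Fbxw26 to 0.14 for Fbxw22, and 0 members passed the test.

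The partners of F-box proteins were also present in these oocytes. The adaptor gene Skp1a stood at 520 FPKM in control and 488 FPKM in metformin libraries, and the scaffold gene Cul1 at 437 and 433 FPKM. Of 30 genes of the SCF core, neddylation and the COP9 signalosome (which removes NEDD8 from cullins), 29 were tested and 0 passed by edgeR or DESeq2, with 0 at an unadjusted p under 0.05. Fitted values were above 0 for 9 of them and below 0 for 20 (median -0.06, log2). The smallest unadjusted p-values were those of the signalosome subunit genes Cops6, at -0.40 on the log2 scale (SE 0.240), and Cops7a, at -0.30 (SE 0.196), and edgeR's adjusted p was 1.00 for each.

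The Fbxw genes elsewhere in the genome were lower than the 10 members. The highest of these 9 were Fbxw4, at 28.4 and 26.98 FPKM in control and metformin libraries, Fbxw7, the receptor for cyclin E and MYC, at 2.68 and 2.14 FPKM, and Fbxw11, a receptor for phosphorylated beta-catenin, at 2.01 and 1.85 FPKM. Every member exceeded Fbxw4 in FPKM in each of the 6 libraries, while Fbxw13, in the cluster but outside the list, was below it in metformin replicate 3, at 22.5 against 29.7 FPKM. Of the 9, 8 were tested and 0 passed, with 4 fitted higher and 4 lower. Of the 57 other F-box genes (Fbxo, Fbxl, Ccnf and Skp2), 39 were tested and 0 passed, with fitted values from -3.31 to 0.72 (median -0.02, log2). The smallest p-values among them were those of Fbxo33, at -0.72 on the log2 scale (SE 0.251, edgeR unadjusted p = 0.0166), and Fbxo11, at -0.36 (SE 0.131, edgeR unadjusted p = 0.0185), and the adjusted p was 1.00 for each. The highest of that list by FPKM were Fbxo11, at 56.3 FPKM in control and 43.5 FPKM in metformin libraries, and Fbxo8, at 46.8 and 45.8 FPKM.

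The library kit named in the labels (SMART-Seq HT) primes on poly(A) tails, and the annotated 3′ ends were read for the elements that set and lengthen tails in oocytes. In the last 100 bases of the longest protein-coding transcript, the polyadenylation signal AATAAA was found in 6 of 10 members (Fbxw15, Fbxw16, Fbxw18, Fbxw19, Fbxw20 and Fbxw24) and in 61.6% of 21828 protein-coding genes. The variant ATTAAA was found in Fbxw22, Fbxw26 and Fbxw28, and in 19.3% of genes. The cytoplasmic polyadenylation elements TTTTAT and TTTTAAT were in 0 of 10 members, against 12.9% and 4.6% of genes, on the sense strand. In Fbxw15, Fbxw16, Fbxw18, Fbxw19, Fbxw20 and Fbxw24 the annotated bases after the coding sequence numbered 55 to 89, so the window covered them all. In Fbxw22 and Fbxw26 they numbered 404 and 392. Where the annotated end is longer than the window, its lack of these letters says nothing of elements further from the end.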

How the data were processed

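Libraries of 3 control and 3 metformin samples were made with the SMART-Seq HT kit, per the labels' protocols, a kit that primes on poly(A) tails and marks neither strand nor molecules. CASAVA 1.8 and TopHat2 2.0.6 were used, with mm10, per the submitters' processing notes. For the counting program, annotation release, read length and treatment of reads with several matches, nothing is stated in the sources used here. Raw read counts and FPKM for each gene and sample were deposited by the authors in a single table.

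Counts were tested with edgeR 4.0.16 (R 4.3.3) by its robust quasi-likelihood test over all genes with enough counts (filterByExpr, minimum count 10), with TMM scaling and Benjamini-Hochberg adjustment at 0.05. The 95% intervals use the fit's SE and a t quantile at the residual degrees of freedom of the 3 control and 3 metformin samples. They are wider than the quasi-likelihood test itself would give. DESeq2 1.42.0 and limma-voom (limma 3.58.1) were alternatives. Levels between genes were compared on the deposited FPKM, with counts per merged exon length as an alternative. At 8622281 to 10588292 counts per library, the limit that 3 counts set was 0.283 to 0.348 CPM, which covers counting error only. Symbols came from the gene name table for 55141 of 55487 IDs. Promoters came from RefSeq (GRCm38.p6), transcripts from GENCODE M21. The scripts were tested on simulated data.

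The members and gene lists were chosen with earlier results of these data known. Named were all members and other genes in the cluster's span with at least 10 counts in a library. The 3 other Fbxw genes highest by FPKM were also named. In the SCF and other F-box lists, the 2 genes highest by FPKM and the 2 with the smallest p were named. The 5 genes most like the summed members came from those averaging at least 10 CPM, without members or placeholder symbols. Mos, Zp3 and Gdf9 were named for comparison of levels.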

Additional observations from a re-analysis of the deposited data

How the results depend on the processing

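The number of genes called over the whole table was 5 with edgeR, 9 with DESeq2 and 5 to 12 when each library was left out in turn. The number of members called was 0 under all 16 alternatives, with a smallest adjusted p of 0.997. Of 160 member values under these alternatives, 146 kept their sign and 14 did not. Scaling by library size gave every member a lower log2 fold change and took that of Fbxw20 from 0.016 to -0.0047. The cause was not tested. With each library left out in turn, the summed members ranged from -0.055 to 0.22, Fbxw15 from -0.10 to 0.11, Fbxw16 from -0.081 to 0.13, Fbxw18 from -0.062 to 0.22, Fbxw19 from -0.0074 to 0.26, Fbxw20 from -0.12 to 0.14, Fbxw22 from -0.026 to 0.31, Fbxw24 from -0.041 to 0.20, Fbxw26 from -0.16 to 0.055 and Fbxw28 from -0.076 to 0.22, while Fbxw21 stayed between 0.02 and 0.12. Samples sharing a number had deviations correlated at 0.144, 0.0441 and 0.200, which does not show pairing, although each correlated best with its own number. With a replicate block, edgeR called 7 genes and 0 members, and the summed members stood at 0.08 (SE 0.129). The planned search of longer promoters was not run.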
